A study of Drosophila melanogaster with 8 samples.

Results

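The genes described here are 45 genes of *Drosophila melanogaster* that build and steer mitosis: the cyclins and kinases that start it, the centromere and kinetochore proteins that hold chromosomes to the spindle, the checkpoint that delays anaphase, the condensin and separase proteins that shape and part the chromatids, the motors of the spindle, and the proteins that cut the cell at its end. They were found by gene symbol among the 16845 FlyBase genes of the count table, from a list of 46 names. *Top2* was not matched to an identifier of the table and was not analysed here. RNA came from the terminalia (genital and anal structures) of single male pupae of genotype yw;+;+, each library from a different pupa. The pupae were dissected at 24 hr after puparium formation (APF, 4 libraries) or 28 hr APF (4 libraries). No treatment or allele separates the groups beyond age.

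Mitosis is driven by Cdk1 bound to cyclins A, B and B3. The kinetochore, assembled on the centromeric histone, captures microtubules, and the spindle checkpoint holds back the anaphase promoting complex until every chromosome is attached. The complex, switched on by Cdc20 (*fzy* in flies), then marks securin and the cyclins for destruction, so separase can part the chromatids and the central spindle can place the cleavage furrow. Transcripts of many of these genes are made mainly in cycling cells and fade in cells that leave the cycle, and epithelia of imaginal origin pass from division to differentiation during pupal life. In RNA from a whole tissue, fewer cells making a transcript and less transcript per cell cannot be told apart.

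Each library held between 24534188 and 35795240 counted reads, with overlapping ranges at the time points. No pair of libraries of a time point was a duplicate: the chi-square per degree of freedom between them was at least 7.361. The labelled tissue was checked against 10 transcription factors of the terminalia, whose mean levels lay between 16.1 and 131.8 rpkm (the count divided by exon length in kilobases and scaled to the library's counted reads) at 24 hr APF and between 13.8 and 122 rpkm at 28 hr APF. *Abd-B*, the Hox gene of the posterior segments, had 79.8 rpkm at 24 hr and 88.1 rpkm at 28 hr APF. Of those 10 genes, 5 were called higher at 28 hr APF, against 15.6% of all tested genes, and the other 5 did not pass the test.

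Of the 45 mitotic genes, 42 were lower and 1 was higher at 28 hr APF at an adjusted p-value under 0.05 (edgeR quasi-likelihood test, p-values adjusted over all 11232 tested genes by the Benjamini-Hochberg method). All 45 passed the filter on low counts. Among all tested genes, 32.9% were called, 17.3% lower and 15.6% higher. The median log2 fold change (28 over 24 hr APF) of the 45 genes was -0.90, where the median of all tested genes was 0.00. In the same 42 genes every library at 28 hr APF lay below every library at 24 hr APF in CPM (counts scaled to library size), a pattern seen in 21.2% of tested genes. The fitted level of 16 of the 45 fell to at most 1 part in 2, which was so for 2.65% of tested genes. Tested against a fold change of 1.5, 25 of the 45 were still called lower, against 2.36% of tested genes.

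The genes were far from uniform. Their log2 fold changes ran from -1.52 for *cid* to 0.26 for *cana*, and 2 genes, *Bub1* and *Mis12*, did not pass the test. The size of the change had little relation to the level at 24 hr APF (across the 45 genes, Pearson's r was 0.02 and Spearman's coefficient 0.04) or to exon length (r of 0.26 and Spearman's coefficient of 0.21), and no p-value is given since genes of the same libraries are not independent. Their order by level was largely kept, with a Spearman's coefficient of 0.93 between the time points.

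**Figure D1:**
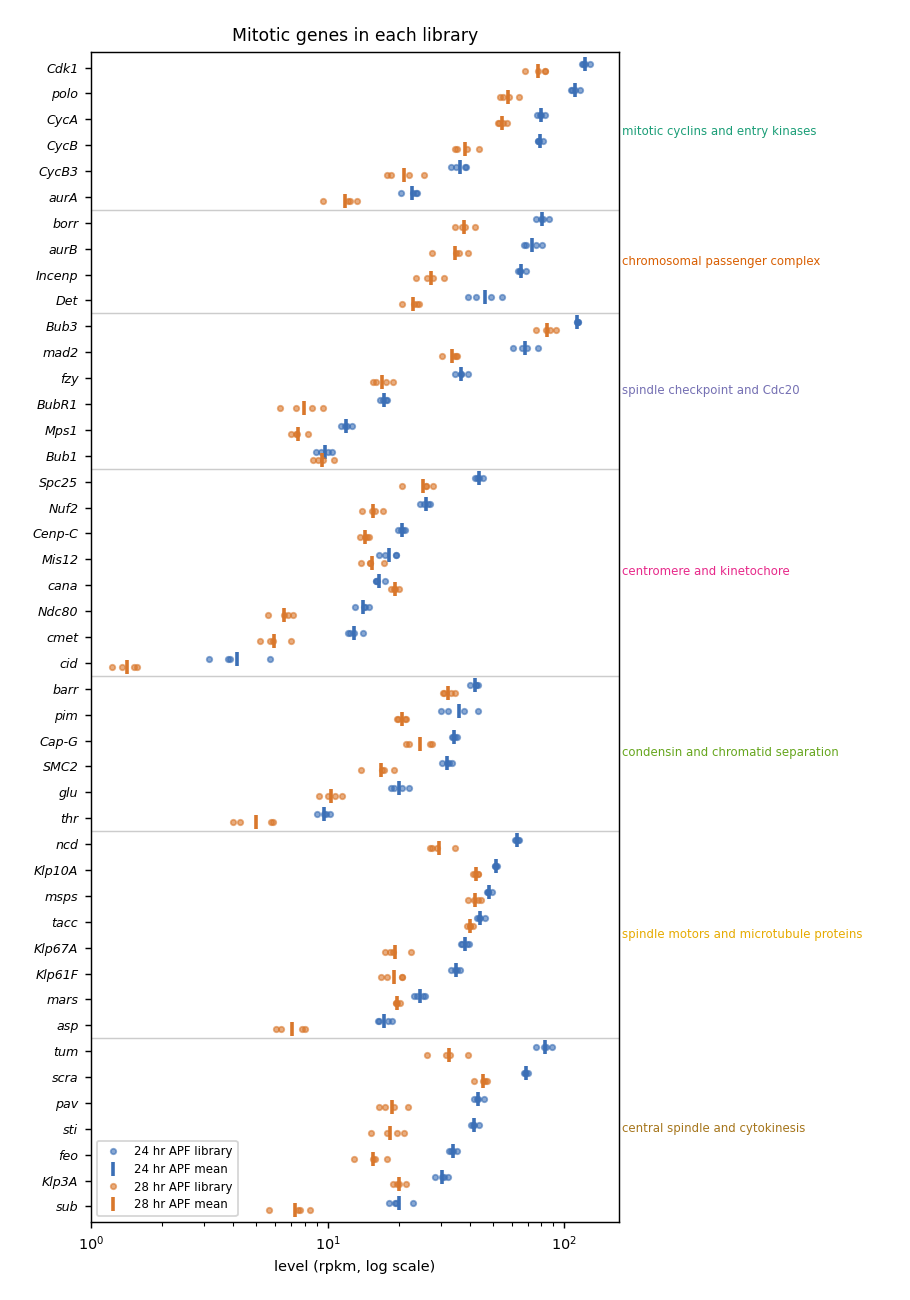
Level of each of the 45 genes in each library, in rpkm on a log axis, with 1 dot per library and a bar at the mean of 4 libraries; genes are grouped by role. The blue dots (24 hr APF) and orange dots (28 hr APF) do not overlap except in *Bub1* and *Mis12*, and *cana* is the only gene whose orange dots lie to the right.

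**Figure D2:**
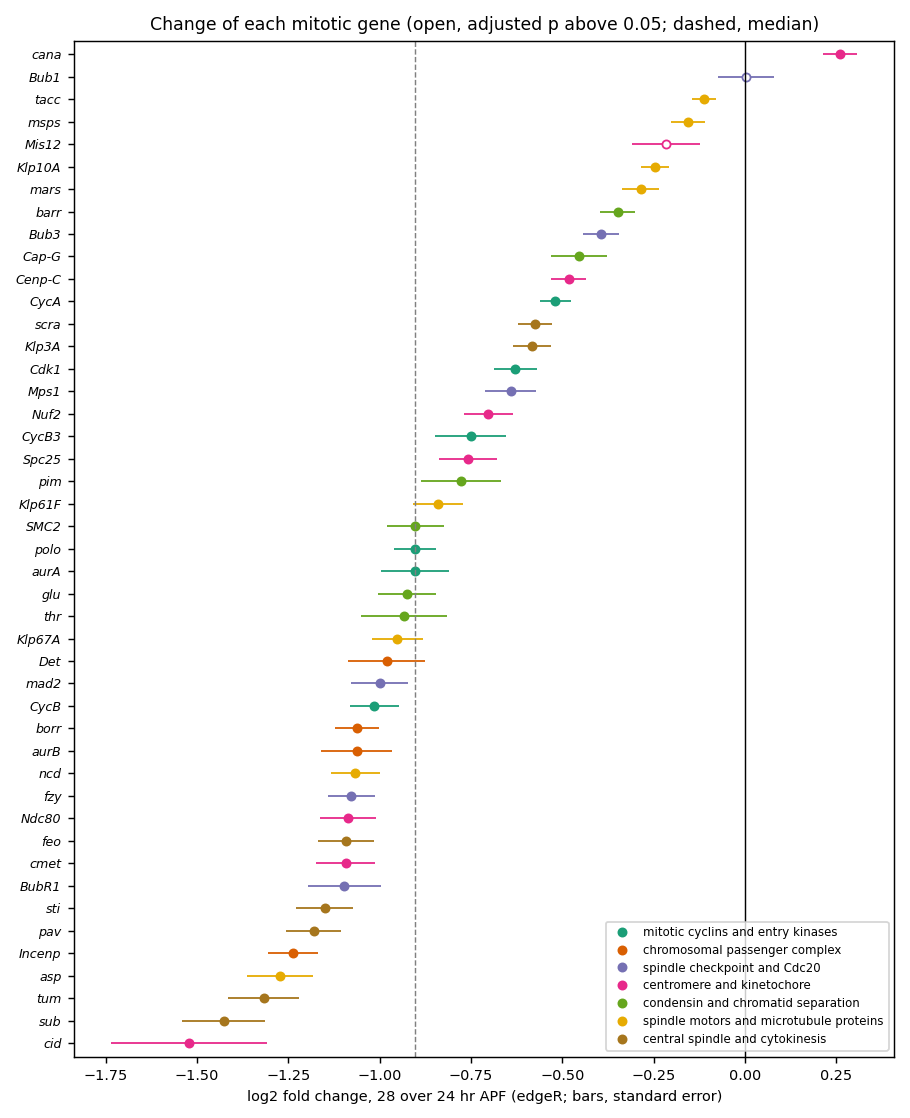
Log2 fold change of each gene with its standard error from edgeR, ordered by size and coloured by role. Of the 45 genes 42 lie left of 0 with a filled symbol, the dashed line marks the median of -0.90, and *Bub1* and *Mis12* have open symbols because their adjusted p was above 0.05.

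All 6 genes of this group fell, with a median log2 fold change of -0.83. *Cdk1* (FBgn0004106, arm 2L), the kinase at the centre of mitosis, was the most abundant of the 45 genes at 24 hr APF. Its levels there were 123, 119, 120 and 129 rpkm in replicates 1 to 4, and at 28 hr APF they were 83.0, 77.2, 67.9 and 82.9 rpkm. All 4 later libraries lay below all 4 earlier ones, and replicate 3 was the lowest. The log2 fold change was -0.63 (standard error 0.06, adjusted p = 3.13e-05, edgeR). *CycB* (FBgn0000405, arm 2R), the cyclin whose destruction lets cells leave mitosis, had 78.6, 77.2, 77.3 and 81.2 rpkm at 24 hr APF and 43.8, 39.0, 34.4 and 35.2 rpkm at 28 hr APF. The drop was the largest of the group (log2 fold change -1.01, standard error 0.07, adjusted p = 4.41e-06, edgeR). *CycA*, which in flies is needed to enter mitosis, started from nearly the same level, 79.6 ± 2.60 rpkm (SD, n = 4), but stood at 54.4 ± 2.19 rpkm (SD, n = 4) at 28 hr APF, a log2 fold change of -0.52. *CycB3* fell from 36.1 to 21.0 rpkm. The kinases *polo*, which acts at centrosomes, kinetochores and the midbody, and *aurA*, which matures centrosomes, had log2 fold changes of -0.90 each, although *polo* (111 rpkm at 24 hr APF) lay well above *aurA* (22.7 rpkm).

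This complex corrects faulty attachments of chromosomes and later works at the cleavage plane. All 4 subunits fell, with log2 fold changes from -1.24 to -0.98. *borr*, the Borealin-related protein and the most abundant of them, had 81.1, 75.8, 79.5 and 86.2 rpkm at 24 hr APF and 41.8, 37.0, 34.4 and 38.2 rpkm at 28 hr APF (log2 fold change -1.06, standard error 0.06, adjusted p = 2.33e-06, edgeR). *Incenp*, the scaffold that carries the kinase, had 64.7, 63.7, 64.8 and 69.1 rpkm at 24 hr APF and 31.1, 27.8, 23.6 and 26.4 rpkm at 28 hr APF. It had the lowest adjusted p of all 45 genes (log2 fold change -1.24, standard error 0.07, adjusted p = 2.04e-06, edgeR). The kinase itself, *aurB*, went from 73.3 ± 6.29 to 34.4 ± 4.95 rpkm (SD, n = 4 for both), and *Det*, the fly Survivin, from 46.2 ± 6.75 to 23.0 ± 1.63 rpkm (SD, n = 4 for both).

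Here 5 of 6 genes fell and *Bub1* did not pass the test. *Bub1* (FBgn0031696, arm 2L), a checkpoint kinase of the kinetochore, had 10.1, 10.4, 9.39 and 8.94 rpkm at 24 hr APF and 9.09, 8.68, 10.6 and 9.59 rpkm at 28 hr APF. These values interleave, and replicate 3 at 28 hr APF was the highest of all 8. Its log2 fold change was 0.00 (standard error 0.08, adjusted p = 0.987, edgeR), and its sign turned with scaling and filter (-0.03 with total counts only and -0.01 with no filter). The related gene *BubR1*, which with its partner *Bub3* binds and blocks Cdc20, moved instead from 17.8, 16.7, 17.2 and 17.7 rpkm to 9.55, 8.61, 6.30 and 7.37 rpkm (log2 fold change -1.10, standard error 0.10, adjusted p = 2.58e-05, edgeR). *Bub3* itself was among the steadiest genes at 24 hr APF, at 114, 113, 114 and 114 rpkm, and went to 91.9, 83.7, 75.8 and 87.3 rpkm. It became the most abundant of the 45 genes at 28 hr APF (log2 fold change -0.39, standard error 0.05, adjusted p = 0.000154, edgeR). In the annotation 15.9% of the exon bases of *Bub3* are shared with a gene on the opposite strand, and whether strand was used in counting is not given in the sources used here. The kinase *Mps1*, the upstream trigger of the checkpoint, fell from 12.0 to 7.52 rpkm, and *mad2*, a direct inhibitor of Cdc20, from 68.6 to 33.6 rpkm (11.5% of its exon bases are shared with *kri* on the opposite strand). *fzy*, the Cdc20 gene that these proteins restrain, went from 36.7 ± 1.80 to 17.0 ± 1.54 rpkm (SD, n = 4 for both), a log2 fold change of -1.08.

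This was the most mixed group: 6 of 8 genes fell, 1 rose and 1 did not pass. *cid* (FBgn0040477, arm 2R) encodes the centromeric histone and was the least abundant of the 45 genes. It had 3.16, 3.77, 3.88 and 5.72 rpkm at 24 hr APF and 1.57, 1.52, 1.35 and 1.22 rpkm at 28 hr APF. The gene is short and these levels rest on 94 to 208 reads a library at 24 hr APF and 41 to 50 at 28 hr APF. Its log2 fold change of -1.52 was the lowest of all 45 and also had the largest standard error, 0.21 (adjusted p = 0.000371, edgeR). *Cenp-C*, which binds centromeric chromatin and recruits the outer layers, fell less, from 20.6 to 14.4 rpkm. In the Ndc80 complex, the coupler that grips microtubules, *Ndc80* fell from 14.1 to 6.52 rpkm, *Nuf2* from 25.9 to 15.6 rpkm, and *Spc25*, the most abundant gene of the group, from 42.9, 41.8, 43.8 and 45.5 rpkm to 27.9, 26.0, 20.7 and 26.1 rpkm (log2 fold change -0.76, standard error 0.08, adjusted p = 5.80e-05, edgeR). *Spc25* lies inside the span of *grsm* on the opposite strand. *Mis12*, a subunit of the inner kinetochore scaffold, had 19.4, 17.4, 16.4 and 19.4 rpkm at 24 hr APF and 13.9, 15.03, 15.1 and 17.3 rpkm at 28 hr APF. The highest later value overlapped the earlier ones, and its log2 fold change was -0.22 (standard error 0.09, adjusted p = 0.104, edgeR). Without replicate 4 at 28 hr APF, the library that overlapped, the value was -0.28 and passed the test (adjusted p = 0.0458, edgeR). That was the only 1 of the 8 fits leaving out 1 library in which *Mis12* passed.

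The neighbours *cmet* and *cana* went opposite ways. Both encode large kinesins related to vertebrate CENP-E, a motor that moves chromosomes toward the spindle equator, and they lie next to each other on arm 2L, separated by 777 bases in the BDGP6 annotation with 0 genes between (*cmet* from 11261026 to 11269002, *cana* from 11269780 to 11277846). *cmet* (FBgn0040232) had 14.1, 12.4, 12.2 and 12.9 rpkm at 24 hr APF and 6.97, 5.86, 5.19 and 5.70 rpkm at 28 hr APF, lower in every later library (log2 fold change -1.09, standard error 0.08, adjusted p = 7.75e-06, edgeR). *cana* (FBgn0040233) had 17.4, 16.0, 16.0 and 16.2 rpkm at 24 hr APF and 18.6, 19.996, 19.3 and 19.1 rpkm at 28 hr APF, so all 4 later libraries were above all 4 earlier ones. Its log2 fold change was 0.26 (standard error 0.05, adjusted p = 0.0016, edgeR), and the call held whichever of the 8 libraries was left out. The exons of the pair do not overlap in the annotation. How reads that match both paralogs were counted is not given in the sources used here.

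All 6 measured genes fell. Of the condensin core pair, *SMC2* went from 32.0 to 16.8 rpkm and *glu* (the fly SMC4) from 20.1 to 10.4 rpkm, log2 fold changes of -0.90 and -0.92. Of the regulatory subunits, *Cap-G* went from 34.3 to 24.5 rpkm, *Cap-D2* from 18.2 to 9.82 rpkm (log2 fold change -0.86), and *barr*, the most abundant, from 42.6, 43.3, 39.9 and 42.5 rpkm to 34.5, 33.3, 30.8 and 31.0 rpkm (log2 fold change -0.35, standard error 0.05, adjusted p = 0.000338, edgeR). *thr*, part of the fly separase, had 9.65, 9.82, 9.03 and 10.2 rpkm at 24 hr APF. At 28 hr APF its libraries split into 5.89 and 5.74 rpkm in replicates 1 and 2 and 3.99 and 4.27 rpkm in replicates 3 and 4 (log2 fold change -0.93, standard error 0.12, adjusted p = 0.00019, edgeR). *pim*, the securin that restrains separase, went from 35.9 ± 5.88 to 20.5 ± 0.898 rpkm (SD, n = 4 for both).

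All 8 genes were called lower, but this group held the smallest falls of the 42, with a median log2 fold change of -0.56. *Klp10A*, a kinesin that dismantles microtubule ends, was the most abundant by the mean of all 8 libraries. It had 51.6, 50.97, 50.98 and 52.2 rpkm at 24 hr APF and 42.0, 43.1, 43.3 and 41.1 rpkm at 28 hr APF, a small change with little spread (log2 fold change -0.25, standard error 0.04, adjusted p = 0.000734, edgeR). The microtubule polymerase *msps* and its centrosomal partner *tacc* changed least, from 47.9 to 42.1 rpkm and from 44.2 to 40.0 rpkm. Their log2 fold changes of -0.16 (adjusted p = 0.0271, edgeR) and -0.11 (adjusted p = 0.023, edgeR) passed the test in 5 and 6 of the 8 fits that left out 1 library: *msps* missed it without replicate 1 (-0.14), 2 (-0.16) or 4 (-0.15) at 24 hr APF, and *tacc* without replicate 3 at 24 hr APF (-0.10) or replicate 2 at 28 hr APF (-0.11). *mars*, a microtubule-binding protein of the spindle, fell from 24.5 to 19.7 rpkm. At the other end, *asp*, which focuses spindle poles and whose human counterpart is the microcephaly gene ASPM, had 17.96, 16.5, 16.3 and 18.7 rpkm at 24 hr APF and 8.05, 7.78, 6.02 and 6.36 rpkm at 28 hr APF (log2 fold change -1.27, standard error 0.09, adjusted p = 6.97e-06, edgeR). The minus-end motor *ncd* (63.3 to 29.6 rpkm), the pole-separating motor *Klp61F* (34.7 to 19.0 rpkm) and *Klp67A*, a motor that limits microtubule length (38.0019 to 19.3 rpkm), had log2 fold changes of -1.07, -0.84 and -0.95. Of the exon bases of *ncd*, 15.3% are shared with genes on the opposite strand, as are 12.0% of those of *mars* and 11.0% of those of *Klp61F*.

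All 7 genes fell, and the median log2 fold change of -1.15 was the lowest of the 7 groups. The pair that forms centralspindlin, the motor *pav* and its partner *tum*, bundles microtubules between the parting chromosomes. *tum* had 83.5, 76.3, 81.7 and 89.2 rpkm at 24 hr APF and 39.3, 32.8, 26.4 and 31.6 rpkm at 28 hr APF (log2 fold change -1.32, standard error 0.10, adjusted p = 7.75e-06, edgeR), and *pav* fell from 43.4 to 18.7 rpkm. *sub*, a related kinesin of the central spindle, had 19.4, 19.2, 18.3 and 22.9 rpkm at 24 hr APF and 8.41, 7.61, 5.64 and 7.47 rpkm at 28 hr APF. The change was second in size to that of *cid* (log2 fold change -1.43, standard error 0.11, adjusted p = 1.15e-05, edgeR), and 20.6% of its exon bases are shared with a gene on the opposite strand. *feo*, the fly PRC1 that crosslinks the overlapping microtubules, fell from 33.8 to 15.5 rpkm, and *sti*, the citron kinase of the midbody, from 41.7 to 18.4 rpkm. The fall was smaller for *scra*, the anillin that ties the actomyosin ring to the membrane (68.7 to 45.1 rpkm), and for the kinesin *Klp3A* (30.5 to 19.9 rpkm).

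The ratio of the counts of a pair of genes in the same library does not depend on how libraries are scaled, so it shows whether partners changed by different amounts. For 13 pairs the log2 count ratio was compared between time points by a two-sided exact permutation test over the 8 libraries, where 0.0286 is the smallest p that 70 arrangements allow. In 9 pairs the libraries of the time points did not overlap, and each of these reached that p (exact permutation test, 0.0413 after Benjamini-Hochberg adjustment over the 13 pairs). How often pairs of other genes lie apart is not given here. The largest shift was in *cmet* over *cana*, whose log2 ratio went from -0.34 ± 0.04 to -1.70 ± 0.21 (SD, n = 4 each). Since *cmet* was lower and *cana* higher in every later library, this pair had to lie apart, and its p adds nothing. *BubR1* over *Bub3* went from -0.95 ± 0.04 to -1.66 ± 0.18 (SD, n = 4 each), and *CycA* over *CycB* from -0.04 ± 0.04 to 0.46 ± 0.10 (SD, n = 4 each). Shifts in the log2 ratio of 0.39 for *Cdk1* over *CycB*, -0.39 for *Ndc80* over *Nuf2*, -0.26 for *CycB* over *CycB3*, -0.18 for *Incenp* over *borr*, 0.16 for *aurA* over *aurB* and 0.14 for *pav* over *tum* were smaller.

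In 4 pairs the time points overlapped: *SMC2* over *glu* (shift 0.02, exact permutation p = 0.857), *msps* over *tacc* (-0.05, exact permutation p = 0.429), *barr* over *Cap-G* (0.11, exact permutation p = 0.286) and *pim* over *thr* (0.19, exact permutation p = 0.286). These p-values do not show that such partners moved together. The 9 shifts kept their sign when any 1 library was left out. With 1 library left out the time points of the 9 pairs stayed apart, since they were apart with all 8 libraries. All 9 kept an adjusted p of 0.0413 without replicate 2 at 24 hr APF (exact permutation test). The adjusted p missed the threshold for all 9 pairs without replicate 1, 2 or 3 at 28 hr APF (0.0531 to 0.124, exact permutation test). It was also missed for *aurA* over *aurB* without replicate 4 at 28 hr APF, and for *pav* over *tum* without replicate 1, 3 or 4 at 24 hr APF. The 9 shifts thus kept their direction in every such fit, but their adjusted p did not stay under the threshold in each.

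**Figure D3:**
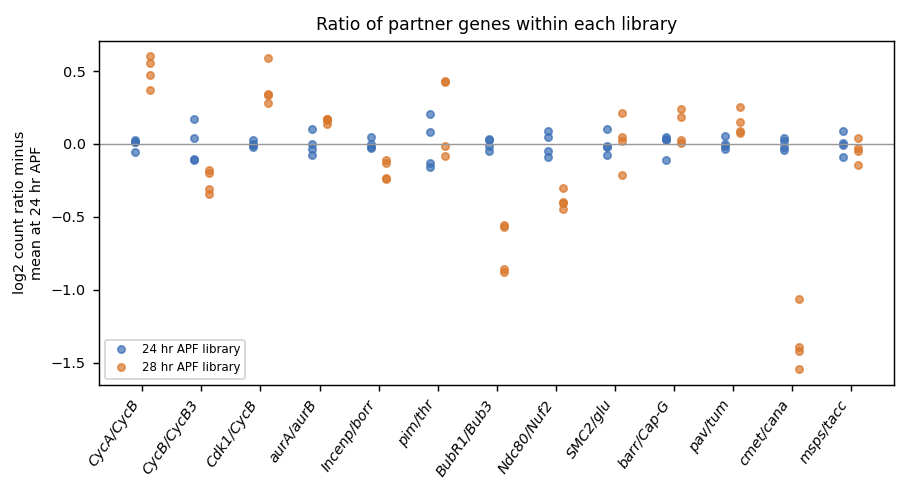
Log2 ratio of the counts of partner genes in each library, drawn relative to the mean ratio at 24 hr APF (0 on the axis); blue, 24 hr APF, orange, 28 hr APF, 1 dot per library. The dots of the time points lie apart in 9 of 13 pairs, most widely for *cmet* over *cana*, and overlap in the pairs of *SMC2*, *msps*, *barr* and *pim*.

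The genes also rose and sank together between pupae of the same age. After TMM scaling (edgeR's normalization between libraries), 34 of the 45 genes had their highest value at 28 hr APF in replicate 1, the library that held the maximum for 22.8% of all tested genes, and 24 had their lowest in replicate 3, against 24.9% of tested genes. At 24 hr APF, replicate 4 was highest for 35 of the 45, against 32.0% of tested genes. Replicates 3 and 2 were lowest for 22 and 16, against 29.3% and 21.95% of tested genes. With total counts only, replicate 2 was lowest for 24, against 21.5% of tested genes. Scaled to total counts, the summed level of the 45 genes was between 5498 and 5803 CPM at 24 hr APF. At 28 hr APF it was between 3247 and 3739 CPM. After TMM scaling these ranges were 5372 to 5835 CPM and 3341 to 3733 CPM. Also at total counts, a gene's coefficient of variation over 4 libraries had a median of 4.09% at 24 hr and 9.64% at 28 hr APF. It was higher at 28 hr APF for 38 of the 45. Over all 11232 tested genes the medians were 7.09% and 7.995%, and 56.6% were higher at 28 hr APF. *thr* varied most at 28 hr APF (19.8%) and *mars* least (1.84%).

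Genes that fell further between the time points also differed more between pupae. The log2 difference between replicates 1 and 3 at 28 hr APF had a median of 0.22 over the 45 genes, and across them its relation to the log2 fold change had r = -0.75 (Pearson) and a coefficient of -0.72 (Spearman). Between replicates 4 and 2 at 24 hr APF the median difference was 0.14, with r of -0.57 and Spearman's coefficient of -0.64. Between replicates 4 and 3 at 24 hr APF it was also 0.14, with r of -0.43 and Spearman's coefficient of -0.38. Across all 11232 tested genes the same values were r of -0.12 and Spearman's coefficient of -0.20 at 28 hr APF and, at 24 hr APF, r of -0.30 and Spearman's coefficient of -0.27 against replicate 2 and -0.25 and -0.25 against replicate 3. The libraries for this comparison were chosen after their values were seen, the points share the libraries that enter the fold change, and no p-value is given. Replicates 1 and 3 at 28 hr APF held 31429881 and 30001096 counted reads, and replicates 4, 2 and 3 at 24 hr APF held 35795240, 24534188 and 27686357. The part of depth in this pattern was not tested.

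**Figure D4:**
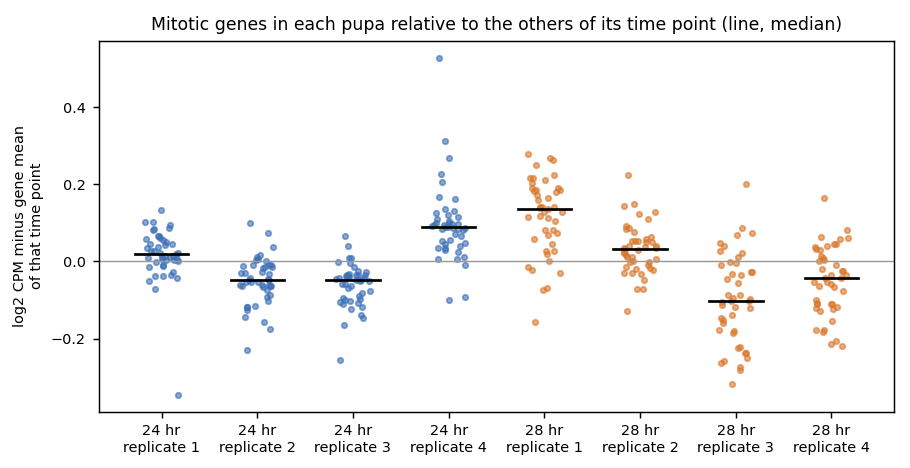
Log2 CPM (TMM-scaled) of each of the 45 genes in each library minus the gene's mean over the 4 libraries of that time point, with 1 dot per gene and a line at the median. The median is 0.09 in replicate 4 at 24 hr APF, 0.14 in replicate 1 at 28 hr APF and -0.10 in replicate 3 at 28 hr APF.

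A further 107 genes on 9 lists of the same processes were measured and 104 were tested. Of these, 59 were called lower and 9 higher at 28 hr APF, against 17.3% and 15.6% of all tested genes. Their median log2 fold change was -0.19, a smaller size than that of the 45 genes. Among the regulators of entry and exit, 8 of 13 fell and 3 rose. Of the exon bases of *Cks85A*, which is among those that rose, 74.9% are shared with genes on the opposite strand. *fzr*, the Cdh1 protein that keeps the anaphase promoting complex active after mitosis and in cells that stop dividing, rose from 49.2, 47.9, 52.0 and 49.6 rpkm to 75.8, 75.7, 77.0 and 76.1 rpkm. All 4 later libraries lay above all 4 earlier ones (log2 fold change 0.65, standard error 0.04, adjusted p = 2.33e-06, edgeR), while its counterpart *fzy* was lower in every later library. *stg*, the Cdc25 phosphatase that switches Cdk1 on, also rose, from 163, 148, 151 and 162 rpkm to 186, 191, 195 and 197 rpkm (log2 fold change 0.33, standard error 0.05, adjusted p = 0.000389, edgeR), while *Cks30A*, a small protein that binds Cdk1, fell from 49.8 to 19.99 rpkm (log2 fold change -1.29).

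In the lists of machinery the genes that passed the test were lower, a call made for 17.3% of all tested genes. In the anaphase promoting complex 6 of 11 genes fell, with *shtd*, its large scaffold subunit, at a log2 fold change of -0.44. Cohesin and its regulators had 7 of 11 lower, the acetyltransferase *eco* by -0.50 on the log2 scale. The largest fall of this list was in the separase gene *Sse*, from 6.23 to 2.87 rpkm (log2 fold change -1.09, adjusted p = 0.000396, edgeR). Of 3 further condensin genes, *Cap-D2*, of condensin I, was called lower, and the condensin II genes *Cap-D3* and *Cap-H2* were not (-0.17 and 0.05). Among other kinetochore genes 8 of 10 fell, with *Zwilch* of the Rod-Zw10-Zwilch complex at -0.88. Of the augmin and gamma-tubulin ring genes 13 of 15 fell, with the augmin subunit *msd1* at -1.16, and of the centriole and centrosome genes 7 of 12 fell, with the centrosome scaffold *spd-2* at -1.10.

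The lists that hold general cytoskeletal genes were mixed. Among other spindle genes 5 of 13 fell, led by *mei-38* (13.8 to 5.27 rpkm, log2 fold change -1.37, 23.6% of exon bases shared with a gene on the same strand), and 4 rose, including *Patronin*, which caps microtubule minus ends (log2 fold change 0.29). Of 16 other cytokinesis genes, 4 fell and 2 rose, near the shares of 17.3% and 15.6% among all tested genes. *pbl*, which is needed to start furrowing, fell from 22.5 to 12.6 rpkm (log2 fold change -0.80), and *Septin5* rose from 18.1 to 21.2 rpkm (0.26). The contractile and actin genes *sqh* and *tsr*, which serve many functions besides division, did not pass the test (log2 fold changes of 0.03 and -0.06).

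**Figure D5:**
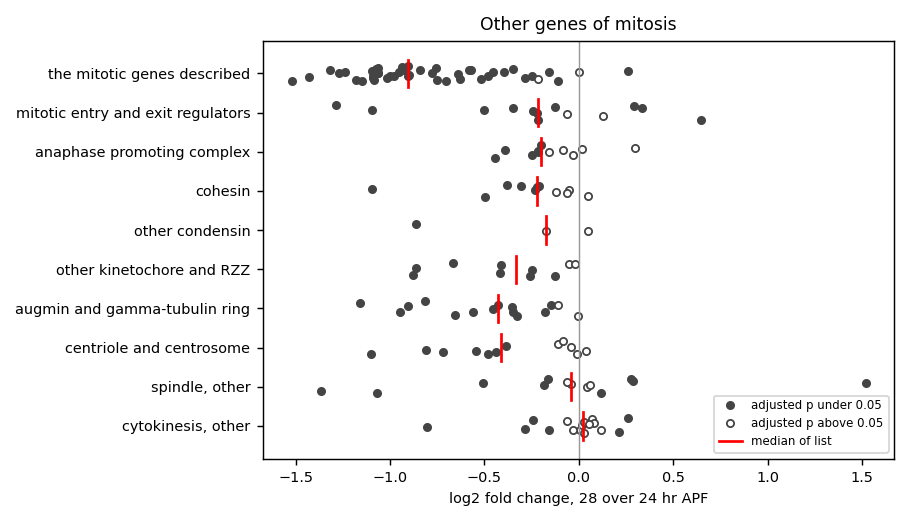
Log2 fold change of the 45 genes (top line) and of 9 further lists of mitotic genes, with 1 dot per gene, filled where the adjusted p in edgeR was under 0.05, and a red line at each median. The medians lie at -0.90 for the 45 genes and between -0.43 and 0.02 for the other lists, and *fzr* is the dot at 0.65.

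Germline, muscle and blood cells can also divide, so their markers were read beside the result. Of 16 testis and germline genes, 8 had enough reads to be tested, 1 was called lower (*mia*, 6.60 to 4.05 rpkm) and 1 higher (*betaTub85D*, 0.278 to 1.28 rpkm). Transcripts of 5 genes of late male germ cells were seen mainly in replicates 1 to 3 at 28 hr APF. *betaTub85D* had 110, 41, 130 and 6 reads in replicates 1 to 4 there and 11 to 25 reads at 24 hr APF. *ocn* had 22, 20, 87 and 3 reads there and at most 1 at 24 hr APF. *Mst84Db* (0.158 to 2.35 rpkm), *Mst84Da* (0.06995 to 1.39 rpkm) and *dj* (0.0477 to 0.471 rpkm), like *ocn*, had too few reads to be tested. Of the exon bases of *Mst84Da*, 75.1% are shared with *MstProx* on the opposite strand. In replicate 4 at 28 hr APF each of these 5 genes had at most 6 reads. *fzo*, also on the list, had 33, 47, 91 and 91 reads in replicates 1 to 4 at 28 hr APF. Levels of the meiotic arrest genes differed: *aly*, *can* and *comr* were at or near 0 in both groups and *topi* had too few reads to be tested. Others were detected, *tomb* at 0.552 and 0.644 rpkm and *sa* at 2.76 and 2.51 rpkm (24 and 28 hr APF). *mia*, given above, is also of this class. *bam*, which defines early germ cells, was at 0.307 rpkm at 24 hr APF and 0.350 rpkm at 28 hr APF, and the summed level of the list was 25.6 to 30.8 CPM at 24 hr APF and 19.3 to 28.7 CPM at 28 hr APF. Of 8 hemocyte genes tested, 0 were called by edgeR and 0 by DESeq2, and 2 had an unadjusted p under 0.05, with summed levels of 157.9 to 203 CPM and 157.1 to 167 CPM. Muscle genes moved in both directions, 3 lower and 5 higher of 9 tested, with summed levels of 888 to 1165 CPM at 24 hr APF and 951 to 1066 CPM at 28 hr APF. Among those lower was *Mef2*, the transcription factor of muscle precursors (30.0 to 23.7 rpkm), and among those higher was *Mlc2* (20.4 to 42.3 rpkm). Neuron and glia genes (5 of 8 higher, 579 to 631 CPM and 626 to 708 CPM), trachea genes (2 of 5 higher, 696 to 810.1 CPM and 796 to 883 CPM) and fat body genes (1 of 6 lower, *Lsp1gamma*, 39.9 to 165 CPM and 35.3 to 79.8 CPM) also moved in part. Among all tested genes 17.3% were called lower and 15.6% higher. The part of these cells in the fall of the mitotic genes was not tested. Age and any difference in handling between the collections cannot be told apart in this design.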

How the data were processed

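Poly-A RNA from single male pupal terminalia was sequenced at 24 hr and 28 hr APF (4 libraries each). The authors mapped 51-base reads, run on 3 lanes, to dm3 with TopHat2 2.0.13 and counted them in unioned exons of FlyBase 5.57 genes with bedtools. They deposited raw counts for 16845 genes, without normalization. How strand, overlapping genes and multiple alignments were handled is not given in the sources used here.

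Gene names and exon lengths came from Ensembl release 115 on BDGP6, matched by FlyBase identifier (16431 of 16845 matched). Rpkm is the count per kilobase of unioned exons, scaled to the counted reads of the library. Counts were tested with edgeR 4.0.16 in R 4.3.3: TMM factors from 0.964 to 1.03, filterByExpr (count minimum 10), quasi-likelihood fit, Benjamini-Hochberg adjustment over all tested genes, threshold 0.05. Standard errors were derived from the log2 fold change and the F statistic. The fit was tested on simulated data. Alternatives were DESeq2 1.42.0, other scalings and filters, a fold minimum, the replicate number as a block, and leaving out each library.

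The genes, lists and pairs were chosen with earlier results of these data known. Genes given library by library with a full test are, in each group by role, the most abundant over 8 libraries and the one with the largest change, plus those that rose or did not pass. *cmet*, *sqh*, *tsr*, *Sse*, *Cks85A* and *Mlc2* were added after their values were seen. Of the further lists, the largest rise and fall among called genes at 5 rpkm or more over the 8 libraries were named, with *stg*, and *Cap-D3* and *Cap-H2* complete a list of 3.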

Additional observations from a re-analysis of the deposited data

Results flagged for a closer look

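The level of each of the 45 genes and their summed level were examined at each time point, 92 groups of 4 libraries in all, and chance alone gives about 4.6 groups in which 1 library lies far from the rest. There was 1 such group. For *cana* at 24 hr APF, replicate 1 was highest at 17.4 rpkm, and the others lay between 15.99 and 16.2 rpkm. Replicate 1 was still below all 4 libraries at 28 hr APF.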

How the results depend on the processing

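Of the 45 genes, 42 were called lower under upper-quartile and RLE normalization, total counts, DESeq2, no filter and a CPM minimum. Tested against a fold change of 1.5, a stricter hypothesis, 531 genes, 25 of the 45 (25 lower) and 14 of the other mitotic genes were called. Without single libraries, 42 to 44 of the 45 were called, 41 to 43 of them lower, and their median log2 fold change lay between -0.96 and -0.83. The log2 fold change of Bub1 turned to -0.0308 with total counts and -0.00823 with no filter, and ran from -0.0743 to 0.0393 without single libraries. The shift in the partner ratio SMC2/glu ran from -0.0493 to 0.0925. With the longest transcript as length, 12 of 90 levels moved by more than their spread, by up to 1.157 times. The levels of *cid* rest on few reads, which limits their precision.

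With the replicate number as a block term (replicate block), 3175 genes were called in place of 3692, with 42 of the 45 (41 lower) and 63 of the other mitotic genes. The log2 fold change of tacc no longer passed (-0.111, adjusted p = 0.0712, edgeR), and the log2 fold change of Bub1 was -0.000841. The labels do not pair the libraries: the deviations of libraries 1 to 4 from their time point means correlated between time points at -0.161, 0.159, -0.216 and 0.144 for equal numbers.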
